A study of Homo sapiens with 6 samples.

Results

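The AP-1 transcription factors are described here through 10 genes, FOS, FOSB, FOSL1, FOSL2, JUN, JUNB, JUND, ATF3, BATF3 and MAFF. They were picked by name from the 23180 gene symbols of the RNA-Seq table, and each gene was read from 1 listed transcript, the one with most counts over the 6 samples. All samples were A549 cells, an established human lung adenocarcinoma line, labelled WT in genotype and taken at passage 11. In 3 samples the cells had received a control siRNA (siRNA_Control, here siControl), and in the other 3 an siRNA against KMT9α (siRNA_KMT9a, here siKMT9α). KMT9α, encoded by N6AMT1, is the catalytic subunit of a histone methyltransferase, and the question was which transcripts change when it is depleted. RNA was taken 3 days after transfection, and a single siRNA in a single line stood for KMT9α depletion. The samples are called biological replicates, but nothing says that they came from separate cultures, so p-values measure the spread between these samples.

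AP-1 is a dimer of basic leucine zipper proteins. FOS-family proteins bind DNA only in a pair with a JUN-family protein, whereas JUN-family proteins also pair with each other, and the pair binds the AP-1 site TGACTCA or the related cyclic AMP response element (CRE) TGACGTCA. FOS, FOSB, JUN, JUNB and ATF3 are immediate-early genes, switched on by growth factors and stress through MAP kinases, and their mRNAs decay quickly. In epithelial tumours FOSL1 in particular is known for its part in invasion and mesenchymal gene expression.

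The promoters of 4 members are shown as examples of the AP-1-type motifs that the results refer to. Each runs 5′ to 3′ in the direction of the gene, from 250 bases before the start of the counted transcript to 50 bases from it, in GRCh37 (hg19). Capitals mark matches on either strand to the AP-1 site TGACTCA, the CRE-like site TGACNTCA or the CRE core TGACG, which overlaps the CRE-like site where that reads TGACGTCA.
FOS (chr14:75745231-75745530, plus strand): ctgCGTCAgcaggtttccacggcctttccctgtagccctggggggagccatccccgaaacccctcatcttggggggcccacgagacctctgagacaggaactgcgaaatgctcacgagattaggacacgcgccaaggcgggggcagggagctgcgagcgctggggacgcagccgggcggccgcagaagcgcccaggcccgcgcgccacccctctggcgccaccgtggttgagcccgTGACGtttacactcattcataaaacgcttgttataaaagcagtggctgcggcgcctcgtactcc
FOSL2 (chr2:28615529-28615828, plus strand): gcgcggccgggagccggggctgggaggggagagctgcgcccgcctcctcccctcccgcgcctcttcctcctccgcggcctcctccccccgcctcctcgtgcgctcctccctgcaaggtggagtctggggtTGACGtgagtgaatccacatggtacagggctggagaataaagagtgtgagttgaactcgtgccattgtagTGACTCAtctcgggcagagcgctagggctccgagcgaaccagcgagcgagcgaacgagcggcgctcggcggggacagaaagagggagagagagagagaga
JUN (chr1:59249736-59250035, minus strand): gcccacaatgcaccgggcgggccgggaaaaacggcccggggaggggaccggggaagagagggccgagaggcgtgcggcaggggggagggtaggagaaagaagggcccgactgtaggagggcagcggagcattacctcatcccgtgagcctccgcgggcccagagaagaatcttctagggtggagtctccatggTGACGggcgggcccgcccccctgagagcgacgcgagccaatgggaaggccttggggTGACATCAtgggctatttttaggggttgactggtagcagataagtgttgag
JUND (chr19:18392383-18392682, minus strand): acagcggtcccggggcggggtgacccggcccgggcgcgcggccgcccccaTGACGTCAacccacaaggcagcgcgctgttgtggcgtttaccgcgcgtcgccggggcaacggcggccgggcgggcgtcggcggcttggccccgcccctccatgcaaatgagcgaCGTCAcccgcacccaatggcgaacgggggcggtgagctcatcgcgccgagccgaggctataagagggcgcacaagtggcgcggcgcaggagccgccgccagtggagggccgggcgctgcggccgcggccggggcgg

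FOSL2, whose protein pairs with JUN-family proteins, was the 1 member with the full AP-1 site, which began 50 bases upstream of the start. This site was found in 3.84% of 20664 distinct windows of the same length. The CRE-like site was found in JUN (as TGACATCA, beginning 1 base upstream), in JUND (as TGACGTCA, beginning 200 bases upstream) and in MAFF (as TGACGTCA, within the transcript), against 7.02% of all windows. The CRE core was found in 8 of the 10 members, all but ATF3 and BATF3, against 26.4% of all windows. The CArG box, the motif of serum response factor, was found in 0 of the 10 windows and in 1.25% of all windows. Sequence more than 250 bases upstream was not searched, so a CArG box there, in FOS or another member, would have been missed. These are matches of letters within a short window and not measured binding sites, and they depend on the start chosen. ATF3 has 3 deposited starts, and the window at 1 of them, not that of the counted transcript, holds a CRE-like site. MAFF has 2 deposited starts, and the window at the second holds none of the motifs. Of 8 members in the RefSeq promoter table, 5 have a window there that overlaps the one used here over its central part.

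**Figure D1:**
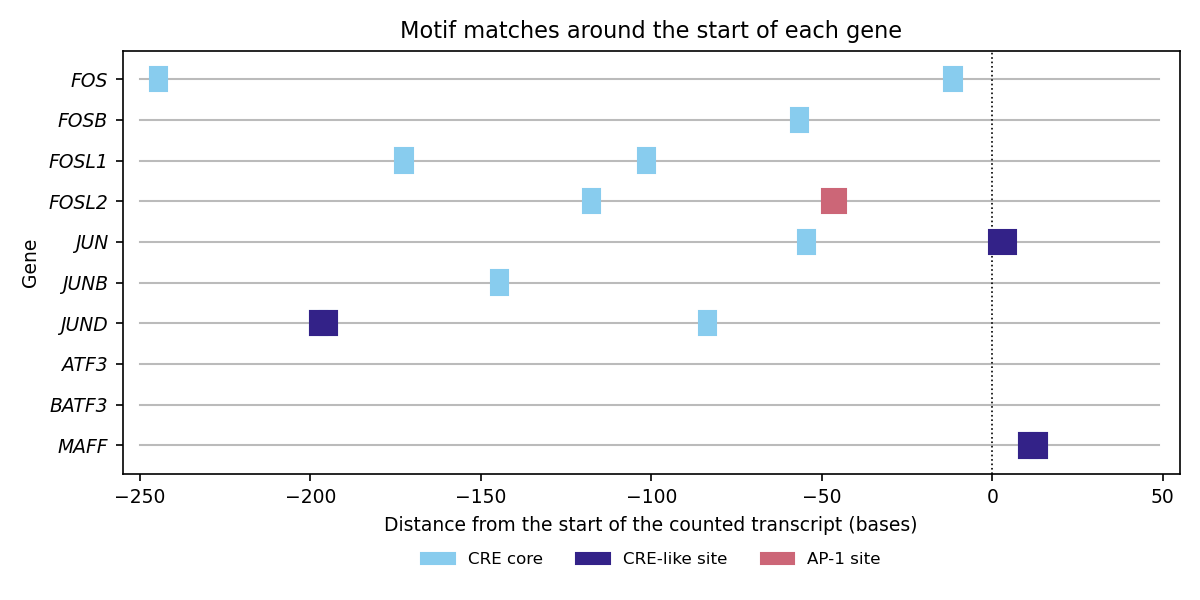
Matches to the AP-1 site, the CRE-like site and the CRE core around the start of the counted transcript of each AP-1 gene, with the distance from the start in bases on the x axis and 1 line per gene. Matches lie in 8 of the 10 genes, and ATF3 and BATF3 have none at this start.

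Depletion was checked on N6AMT1 first. It had 10.2, 10.9 and 11.4 CPM (counts scaled to a common library size, after TMM factors) in siControl replicates 1 to 3 and 2.87, 3.22 and 3.35 in siKMT9α replicates 1 to 3. Its log2 fold change was -1.77 ± 0.12 (SE, adjusted p = 1.43e-10 by the quasi-likelihood test of edgeR, adjusted after Benjamini and Hochberg over the 13877 genes tested), so it was lower in every siKMT9α sample. Counts on the main transcripts summed to 15551778 to 18568639.5 per siControl sample and to 13740097 to 19832395.5 per siKMT9α sample. All 8 markers of lung adenocarcinoma epithelium averaged at least 1 CPM over the 6 samples. Their summed level was 6110 to 6572 CPM with siControl and 3568 to 3716 with siKMT9α. CDH1 rose (2.35 to 4.25 CPM with siControl, 7.82 to 9.68 with siKMT9α) and KRT7 overlapped between groups. The others, KRT8, KRT18, KRT19, EPCAM, AKR1B10 and AKR1C1, were lower in every siKMT9α sample, EPCAM at 0.438 to 0.756 CPM. Of 5 leukocyte markers, the T cell marker CD3E was at 0, and the list's sum of 77.7 to 84.6 CPM with siControl and 27.0 to 28.9 with siKMT9α came mostly from CD68, which other cells also express. The sums were 4.32 to 4.94 and 3.07 to 3.61 CPM for 5 fibroblast markers and 0.572 to 1.05 and 0.0756 to 0.439 CPM for 4 endothelial markers. The part of these shifts in the results that follow was not tested. In bulk RNA, fewer cells with a transcript and less of it per cell cannot be told apart.

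Most AP-1 genes were higher after KMT9α depletion. Of the 10 members, 7 rose (FOS, FOSB, FOSL1, FOSL2, JUN, JUNB and ATF3), JUND and BATF3 fell, and MAFF did not pass the test, at an adjusted p under 0.05 from edgeR's quasi-likelihood test. This rule called 75.6% of all genes tested, 37.1% as higher and 38.5% as lower, so a call by itself sets a gene apart little in this comparison. The study used edgeR but does not name which of its tests gave its p-values. A stricter rule takes the study's thresholds, an unadjusted p under 1e-08 and a log2 change over 0.26 in size, here on quasi-likelihood p-values. It called 8 members, 7 higher and JUND lower, against 24.2% of the genes tested (13.5% higher and 10.7% lower). The groups did not overlap for 9 members, against 77.0% of the genes tested. The median log2 fold change of the 10 members was 0.96, that of the genes tested was -0.01, and the median size of a change over the genes tested was 0.47.

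**Figure D2:**
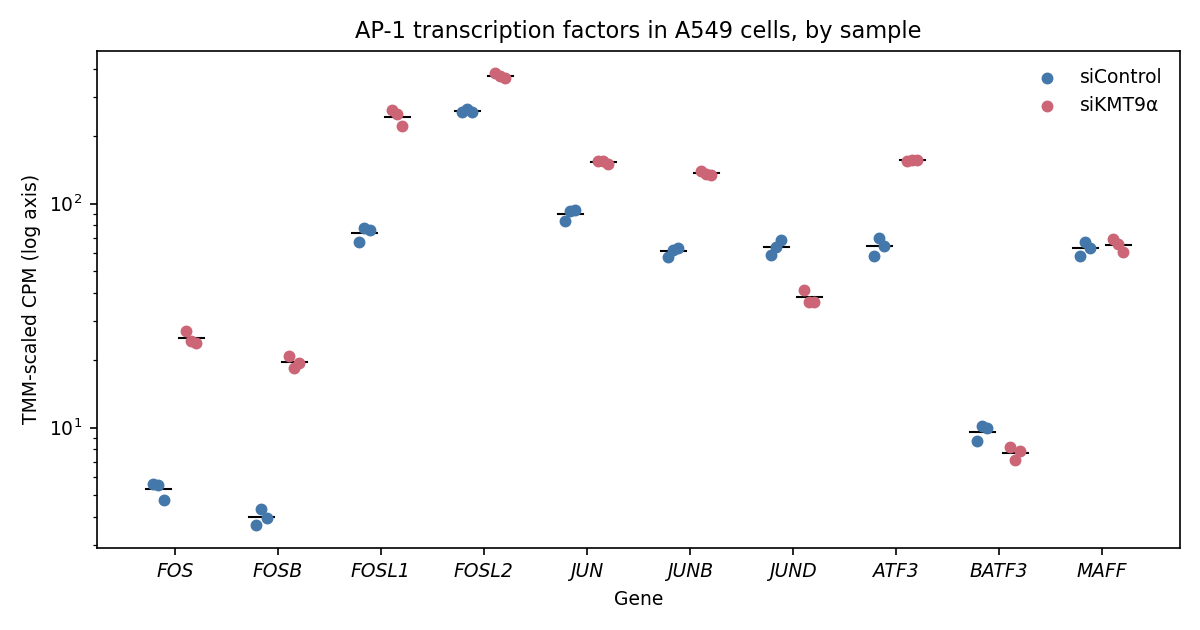
Level of each AP-1 gene in TMM-scaled CPM (log axis), with 1 point per sample (3 siControl, 3 siKMT9α) and a black bar at the group mean. FOS and FOSB sit lowest with siControl and show the widest gaps between groups, the groups overlap for MAFF, and JUND is lower in all 3 siKMT9α samples.

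FOS and FOSB, the short-lived FOS-family proteins that carry a strong activation domain, showed the largest increases from low levels. FOS (NM_005252, chr14:75745481-75748937, 4 annotated exons) had 5.63, 5.56 and 4.73 CPM in siControl replicates 1 to 3 and 27.1, 24.4 and 24.0 CPM in siKMT9α replicates 1 to 3. Every siKMT9α sample lay far above every siControl sample. The means were 5.31 ± 0.50 and 25.2 ± 1.72 CPM (SD, n = 3 each), a 4.73-fold difference, with a log2 change of 2.24 ± 0.10 (SE, adjusted p = 1.32e-13 in edgeR). Only 1.05% of the genes tested had a larger log2 fold change. FOSB (NM_006732, chr19:45971253-45978437) had 3.66, 4.32 and 3.95 CPM with siControl and 20.9, 18.5 and 19.4 CPM with siKMT9α. Its means of 3.98 ± 0.33 and 19.6 ± 1.20 CPM (SD, n = 3 each) differed 4.93-fold, with a log2 change of 2.30 ± 0.11 (SE, adjusted p = 2.53e-13 in edgeR). The 2 listed FOSB transcripts, which share reads, gave 2.29 and 2.30.

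FOSL1 and FOSL2 encode FRA-1 and FRA-2, FOS-family proteins that lack the strong activation domain of FOS and last longer. FOSL1 (NM_005438, chr11:65659692-65667997, 4 annotated exons) had 67.7, 77.9 and 76.2 CPM with siControl and 261.9, 251.2 and 221.3 CPM with siKMT9α. The lowest siKMT9α sample was thus well above the highest siControl sample. Its means were 73.9 ± 5.47 and 244.8 ± 21.1 CPM (SD, n = 3 each), a 3.31-fold difference and a log2 change of 1.73 ± 0.06 (SE, adjusted p = 1.41e-14 in edgeR). FOSL2 (NM_005253, chr2:28615779-28637516, 4 annotated exons) had the highest CPM of the family with siControl, at 255.7, 265.9 and 257.3, and reached 382.0, 371.1 and 363.8 CPM with siKMT9α. The groups did not overlap, but the means of 259.7 ± 5.46 and 372.3 ± 9.16 CPM (SD, n = 3 each) differed only 1.43-fold. The log2 change was 0.52 ± 0.05 (SE, adjusted p = 4.44e-09 in edgeR), and 22.4% of the genes tested had a larger one. By the stricter rule FOSL2 was not called without siControl replicate 3, siKMT9α replicate 1 or siKMT9α replicate 2, with log2 changes of 0.50 to 0.54 over the samples left out. In these fits the rule called 2876 of 13976, 2924 of 14171 and 2326 of 14168 genes, against 3357 of 13877 with all 6 samples.

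The JUN family split, since JUN and JUNB rose and JUND fell. All 3 are genes of 1 annotated exon. JUN (NM_002228, chr1:59246463-59249785), the strongest activator of the family, had 83.5, 92.9 and 93.6 CPM with siControl and 155.7, 155.4 and 149.8 CPM with siKMT9α. Its means of 90.0 ± 5.64 and 153.6 ± 3.30 CPM (SD, n = 3 each) gave a log2 change of 0.77 ± 0.05 (SE, adjusted p = 8.44e-11 in edgeR). JUNB (NM_002229, chr19:12902310-12904125), a weaker activator that can oppose JUN, had 57.9, 62.4 and 63.6 CPM with siControl and 140.6, 135.6 and 133.9 CPM with siKMT9α. Both genes were higher in every siKMT9α sample, JUN by 1.71-fold and JUNB by 2.23-fold. The means of JUNB were 61.3 ± 3.00 and 136.7 ± 3.47 CPM (SD, n = 3 each), and its log2 change was 1.16 ± 0.05 (SE, adjusted p = 1.48e-13 in edgeR).

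JUND, known as the constitutively expressed JUN protein, had 58.9, 63.7 and 68.5 CPM with siControl and 41.3, 36.5 and 36.5 CPM with siKMT9α (NM_005354, chr19:18390563-18392432). All siKMT9α samples were below all siControl samples. The means were 63.7 ± 4.79 and 38.1 ± 2.80 CPM (SD, n = 3 each), 0.596 of the siControl level, with a log2 change of -0.75 ± 0.07 (SE, adjusted p = 5.96e-09 in edgeR). JUND has the highest GC content of the 10 genes, at 69.9%, and with offsets for the GC content and length of transcripts, set for each sample, its log2 fold change was -0.49, still past the stricter rule. JUND missed that rule without siControl replicate 2 or siKMT9α replicate 2, with log2 changes of -0.80 to -0.68 over the samples left out. In these fits the rule called 2704 of 14129 and 2326 of 14168 genes, against 3357 of 13877 with all 6 samples.

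ATF3 and BATF3 encode small zipper proteins that pair with JUN proteins and can repress, and ATF3 is a common stress-response gene. ATF3 (NM_001040619, chr1:212781970-212794119, 4 annotated exons) had 58.6, 70.5 and 64.9 CPM with siControl and 155.8, 156.7 and 156.3 CPM with siKMT9α. The siKMT9α samples were nearly identical and all above the siControl samples. Its means of 64.7 ± 5.95 and 156.3 ± 0.42 CPM (SD, n = 3 each) differed 2.42-fold, with a log2 change of 1.27 ± 0.06 (SE, adjusted p = 2.02e-13 in edgeR). The 6 listed ATF3 transcripts, which share reads, gave 1.27 to 1.30.

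BATF3, best known from dendritic cells, lies 65.6 kb from ATF3 on the same chromosome (NM_018664, chr1:212859759-212873327, 3 annotated exons) and did not rise with it. It had 8.71, 10.1 and 9.98 CPM with siControl and 8.16, 7.16 and 7.90 CPM with siKMT9α, so that the groups were close but did not overlap. The means of 9.61 ± 0.78 and 7.74 ± 0.52 CPM (SD, n = 3 each) gave a log2 change of -0.31 ± 0.11 (SE, adjusted p = 0.0153 in edgeR). The BATF3 call did not hold without siControl replicate 2, siControl replicate 3 or siKMT9α replicate 2 (adjusted p = 0.056, 0.0641 and 0.0679 from the same edgeR test), nor under DESeq2 (adjusted p = 0.0638). With GC and length offsets the log2 fold change was -0.0051 (adjusted p = 0.967 in edgeR), and over all alternatives its adjusted p ranged from 0.0021 to 0.967. MAFF (NM_001161572, chr22:38597939-38612517, 3 annotated exons), a small MAF protein without an activation domain, had 58.5, 67.2 and 63.5 CPM with siControl and 69.7, 66.0 and 60.9 CPM with siKMT9α. These groups overlapped, with means of 63.1 ± 4.35 and 65.5 ± 4.39 CPM (SD, n = 3 each), a log2 change of 0.052 ± 0.062 (SE) and an adjusted p = 0.453 in edgeR. For MAFF the value was -0.053 when counts were scaled by library size alone and 0.20 (adjusted p = 0.00118 in edgeR) with GC and length offsets.

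**Figure D3:**
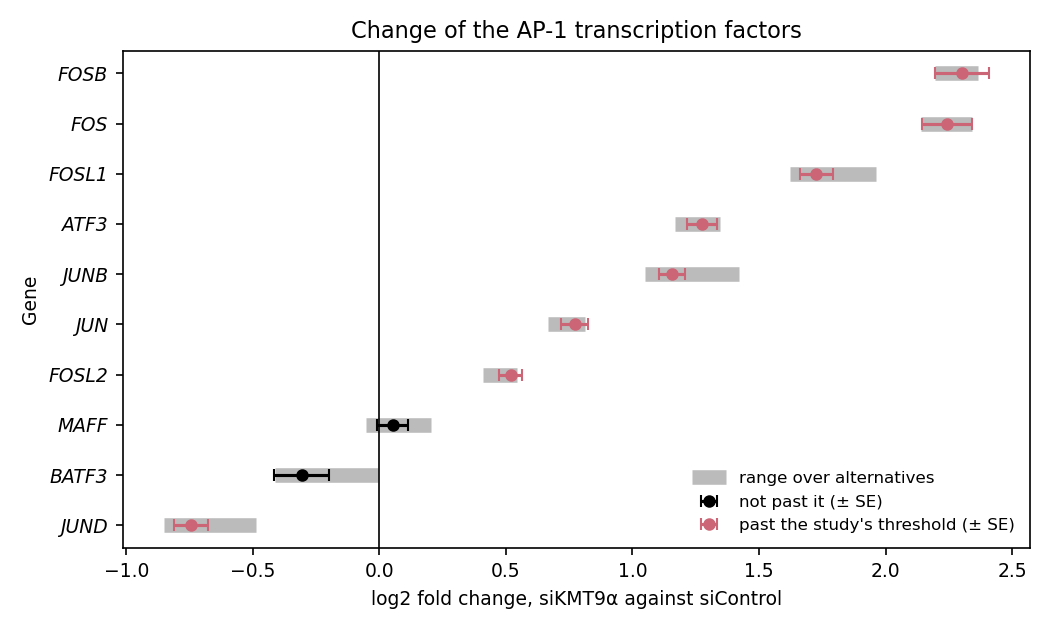
The log2 fold change of each AP-1 gene, siKMT9α against siControl, with its standard error (points with bars) and the range over the alternative ways of processing (grey bars). FOSB (2.30) and FOS (2.24) are at the top and JUND (-0.75) at the bottom, and the range crosses 0 for MAFF.

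A two-sided exact permutation test of the CPM of single genes gave p = 0.1, the smallest that 3 against 3 samples allow, for the 9 genes other than MAFF and p = 0.6 for MAFF. The deposited span of none of the 10 members overlapped that of another gene symbol.

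Since FOS-family proteins compete for JUN-family partners, the levels were also set against each other per length of the transcript, in CPM per kilobase. With siControl the order of levels was FOSL2 (65.2), FOSL1 (44.5), JUND (34.1), JUNB (33.8), ATF3 (27.2), JUN (27.1), MAFF (25.6), BATF3 (9.84), FOS (2.47) and FOSB (1.06). JUND and JUNB differed by less than their spread, as did ATF3, JUN and MAFF. With siKMT9α the order of levels was FOSL1 (147.4), FOSL2 (93.4), JUNB (75.3), ATF3 (65.7), JUN (46.2), MAFF (26.6), JUND (20.4), FOS (11.7), BATF3 (7.93) and FOSB (5.20). On this scale FOSL1 was below FOSL2 with siControl and above it with siKMT9α, while in CPM not divided by length FOSL1 was below FOSL2 in all samples of both groups. FOS and FOSB stayed among the lowest in spite of the largest folds. The summed FOS-family level went from 113.2 ± 4.45 to 257.7 ± 15.7 CPM per kilobase (SD, n = 3 each), a ratio of 2.28, and the summed JUN-family level from 94.9 ± 5.80 to 141.9 ± 4.11, 1.5 times as much.

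The make-up of both families in mRNA differed between the groups, which does not give the make-up of the proteins or their pairs. FOSL1 made up 37.6%, 40.0% and 40.3% of the FOS-family level in siControl replicates 1 to 3 and 58.0%, 58.0% and 55.3% in siKMT9α replicates 1 to 3. FOSL2 made up 59.1%, 56.9% and 56.8% with siControl and 35.3%, 35.7% and 37.9% with siKMT9α. Which of them was higher depended on the length used. Per length of the annotated transcript closest in length, FOSL1 was above FOSL2 in 2 of 3 siControl samples and 3 of 3 siKMT9α samples, and not divided by length it was above FOSL2 in 0 of 3 and 0 of 3. The share of FOSL1 was higher with siKMT9α on each of these scales (39.3% and 57.1% on the counted length, 47.4% and 63.9% on the annotated length, 21.6% and 36.9% undivided). FOS went from 2.18% ± 0.24 to 4.54% ± 0.16 and FOSB from 0.932% ± 0.042 to 2.02% ± 0.13 (SD, n = 3 each). In the JUN family, JUND went from 35.9% ± 0.72 to 14.4% ± 0.66 and JUNB went from 35.6% ± 0.47 to 53.1% ± 0.23 (SD, n = 3 each). JUN changed least, from 28.5% ± 0.42 to 32.6% ± 0.58 (SD, n = 3 each). For each of these 7 shares the groups did not overlap and the exact permutation test gave p = 0.1, the smallest it allows. The shares of a family sum to a fixed total, so they are not independent of each other.

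**Figure D4:**
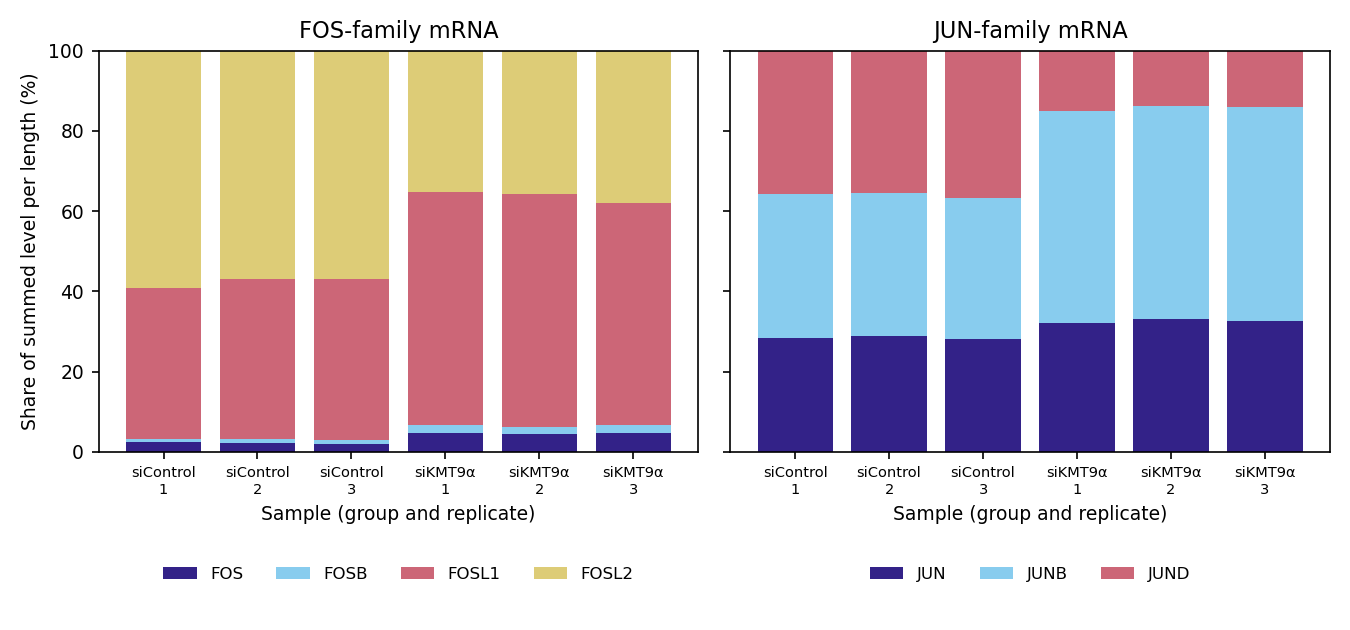
Share of each gene in the summed level per transcript length of the FOS family (left) and the JUN family (right), in percent, with 1 stacked bar per sample. On average FOSL1 is 39.3% of the FOS family with siControl and 57.1% with siKMT9α, and JUND is 35.9% and 14.4% of the JUN family.

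The 3′ UTRs of the members were searched for AU-rich elements, which mark short-lived mRNAs, in the annotated GRCh37 transcript closest in length to the counted one. ATTTA was found in all 10 members and in 65.3% of 17495 annotated UTRs. The longer TATTTAT was found in 8 members, all but JUNB and BATF3, and in 28.8% of UTRs. Longer UTRs hold more matches, and those of the members ran from 374 bases in BATF3 to 4864 bases in FOSL2. The annotated FOSL2 transcript, of 5829 bases, is longer than the counted one of 3984 bases. Part of this UTR, and possibly some of its matches, thus lies outside the counted transcript. The 7-mer ACATTCA, complementary to guide bases 2 to 8 of the siRNA against KMT9α, was found in FOSL2 alone among the members and in 11.1% of UTRs. It lies in FOSL2 at chr2:28637069-28637075 of GRCh37, before the end of the counted transcript at 28637516. JUND and BATF3, the members that fell, had no such match. Whether the siRNA acted on any mRNA through such matches was not tested.

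Genes around AP-1 were taken from 6 lists and read against the shares given above for all genes tested. Among 13 tested genes for other AP-1 and small MAF factors, 1 rose, 6 fell and 6 did not pass the adjusted p of 0.05 (edgeR's quasi-likelihood test), with a median log2 fold change of -0.26. Past the stricter rule 0 were higher and 2 lower. MAFK, a small MAF protein like MAFF, rose by 0.24 (336.1 ± 12.96 to 396.5 ± 15.49 CPM, SD, n = 3 each). BACH1, which pairs with small MAF proteins to repress antioxidant genes, changed by -1.59 (80.4 ± 1.57 to 26.5 ± 3.22 CPM, SD, n = 3 each). MAF, a large MAF protein, changed by -1.01. MAFK was the 1 gene of this list that rose past the test, and its deposited span overlaps that of TMEM184A.

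Upstream of AP-1, 25 genes for MAP kinases, their kinases and nuclear factors of the FOS and JUN promoters were tested. Of these, 9 rose, 10 fell and 6 did not pass, with a median of 0.05. These counts are near the shares of all genes tested (37.1% higher and 38.5% lower). The stricter rule called 2 as higher and 4 as lower, against 13.5% and 10.7% of all genes tested. The largest increases were in MKL2 (1.00), a coactivator of serum response factor, and ELK3 (0.61), a partner of that factor. The largest decreases were in MEF2A (-1.67), a factor that binds the JUN promoter, and MAPK3 (-1.64), which encodes the kinase ERK1. MAPK3 had 27.7 ± 1.82 CPM with siControl and 9.01 ± 1.46 with siKMT9α (SD, n = 3 each). These lists give mRNA levels and not kinase activity.

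Negative regulators of AP-1 signalling mostly rose, with 14 of 18 tested higher, 2 lower and 2 not past the test, and a median log2 fold change of 0.49. Of all genes tested, 37.1% were higher and 38.5% lower. The stricter rule called 7 as higher and 1 as lower, against 13.5% and 10.7% of all genes tested. ZFP36L2 and ZFP36L1, which bind AU-rich elements and speed the decay of such mRNAs, rose by 2.97 and 2.28. ZFP36L1 went from 47.1 ± 0.56 to 229.1 ± 11.9 CPM and ZFP36L2 from 9.54 ± 0.69 to 75.1 ± 2.37 CPM (SD, n = 3 each). DUSP2, a scarce MAP kinase phosphatase, changed by -2.50 (8.64 ± 1.55 to 1.53 ± 0.40 CPM, SD, n = 3 each). DUSP4, another, changed by -0.12 (adjusted p = 0.0331, edgeR's quasi-likelihood test). The DUSP4 call was lost with RLE factors, with no filter, with the replicate block and without siControl replicate 2, siControl replicate 3, siKMT9α replicate 2 or siKMT9α replicate 3 (adjusted p = 0.0574 to 0.267 in edgeR). Other MAP kinase phosphatases of the list, named after their values were seen, rose: DUSP5 (1.15), DUSP10 (0.52), DUSP16 (0.39) and DUSP1 (0.20). DUSP6 and DUSP8, also named after their values were seen, were the genes not past the test, at 0.012 and -0.0099.

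Other immediate-early genes mostly rose as well, with 18 of 23 tested higher, 4 lower and 1 not past the test, and a median of 0.46. Of all genes tested, 37.1% were higher and 38.5% lower. The stricter rule called 9 as higher and 3 as lower, against 13.5% and 10.7% of all genes tested. KLF6, a zinc finger factor, rose by 1.72 (136.4 ± 4.64 to 449.3 ± 31.8 CPM, SD, n = 3 each), and TRIB1, a pseudokinase, by 1.31. EGR1, the zinc finger factor usually induced together with FOS, had 11.7, 12.4 and 12.3 CPM with siControl and 4.08, 3.44 and 2.41 CPM with siKMT9α. It was lower in every siKMT9α sample, with a log2 change of -1.92 ± 0.14 (SE, adjusted p = 2.99e-10 in edgeR), opposite in sign to that of FOS. KLF2, a factor of the same family as KLF6, changed by -1.07. The other genes that fell were NR4A1, a nuclear receptor, by -0.92 and IER2 by -0.34, and NR4A3 (0.0089) was the gene not past the test, all of them named after their values were seen.

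Of 40 known AP-1 target genes, 34 were tested, and 22 rose, 5 fell and 7 did not pass, with a median log2 fold change of 0.66. By the stricter rule 16 were higher and 1 lower, against 13.5% higher and 10.7% lower of all genes tested. PLAU, the urokinase that activates plasmin, had 85.1, 76.5 and 74.0 CPM with siControl and 650.1, 641.3 and 660.7 CPM with siKMT9α, and rose by 3.05 on the log2 scale. The deposited span of PLAU overlaps that of C10orf55, and whether the counting used strand is not given in the sources used here. The cytokine genes IL11 and IL6 rose by 2.73 and 2.25. IL11 went from 63.9 ± 1.77 to 423.2 ± 20.7 CPM, while IL6 was scarce, at 1.05 ± 0.27 and 4.93 ± 0.48 CPM (SD, n = 3 each). The cytokine gene IL1A changed by -2.36 (3.19 ± 0.75 to 0.627 ± 0.138 CPM, SD, n = 3 each) and LAMB3, a laminin chain whose deposited span overlaps a microRNA gene, by -0.89. LAMB3 was the 1 gene lower by the stricter rule. The other genes that fell, named after their values were seen, were IL1B (-3.63) and the gelatinase gene MMP9 (-2.20), both at most 1.51 CPM in every sample, and FLNA (-0.30), which encodes filamin A.

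The stress response genes listed as partners of ATF3 mostly fell. Of 19 tested stress response genes, 4 rose, 13 fell and 2 did not pass, with a median of -0.46, while ATF3 itself rose by 1.27. Of all genes tested, 37.1% were higher and 38.5% lower. The stricter rule called 1 of the list as higher and 10 as lower, against 13.5% and 10.7% of all genes tested. ATF5, a related zipper factor, rose by 1.14. Its deposited span overlaps those of NUP62, IL4I1 and a microRNA gene. EIF2AK3, which encodes the stress kinase PERK, changed by -1.56 (103.1 ± 8.70 to 34.9 ± 2.23 CPM, SD, n = 3 each), and CHAC1, a glutathione-degrading enzyme of this response, by -1.34. ATF4, the factor that induces ATF3 in this response, changed by -0.19 (adjusted p = 0.00277) and its target DDIT3 by -0.76 (adjusted p = 4.4e-11, both from edgeR's quasi-likelihood test). CEBPB (0.27) and PPP1R15A (0.26) also rose, and ATF6 (-0.11) and VLDLR (0.010) did not pass the test. ATF4, DDIT3 and these 4 genes were named after their values were seen. The values of this list are mRNA levels and not the amount or activity of the proteins.

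**Figure D5:**
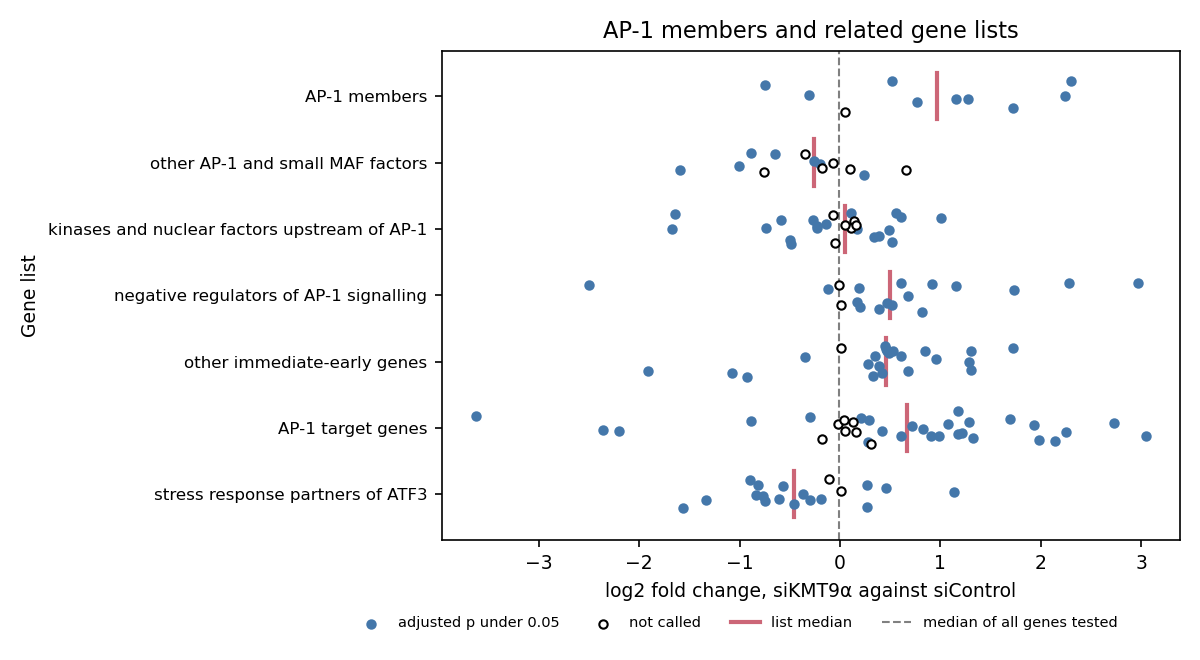
The log2 fold change of each tested gene, siKMT9α against siControl, for the 10 AP-1 members and the 6 related lists, with filled points for an adjusted p under 0.05, open points for the others, a red bar at the list median and a dashed line at the median of all genes tested (-0.01). The medians run from -0.46 for the stress response genes to 0.66 for AP-1 targets and 0.96 for the members.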

How the data were processed

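RNA-Seq of 3 siControl and 3 siKMT9α samples of A549 cells was analysed, grouped by the sample titles. Per the study's methods, the authors aligned reads to hg19 with STAR and counted RefSeq transcripts with HOMER, and they deposited estimated counts that are not normalized, in steps of 0.5 (36.4% were not whole). Counting options, strand and library type are not given in the sources used here. The deposited fold change, p-value and adjusted p-value columns of the authors' own comparison were not used, nor were 1182 of 38767 rows that hold no symbol and counts. All columns of per-sample values belonged to a sample of the series.

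The members and gene lists were chosen with earlier results of these data known. Since transcripts share reads, 1 transcript stood for each symbol, the one with most counts in all samples together. Counts were rounded and fitted over the whole table with edgeR 4.0.16 in R 4.3.3 (TMM, filterByExpr, quasi-likelihood test, group as the only term). Of 23180 symbols, 13877 passed the filter. P-values were two-sided and adjusted by the Benjamini-Hochberg method over these. The standard error was derived from the F statistic. The biological coefficient of variation was 4.47%. Replicates of a group differed by more than counting noise (chi-square per gene 1.36 to 5.28 within groups, 106.7 to 142.0 between groups), so all were kept as separate samples. The fit was tested on simulated data. The exact permutation test for single values was two-sided.

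Promoter windows were read from the GRCh37 genome at the deposited starts, with the strand from GENCODE, which matched 20784 symbols. All 10 members are named. From each list the genes named are the 2 largest and 2 most negative changes among genes with an adjusted p under 0.05, groups that do not overlap and an average of 1 CPM or more, with any such gene past 2 on the log2 scale. A few items chosen by this rule are not reported here. Lists were described by counts and medians. The alternatives were library size alone, RLE factors, edgeR's likelihood-ratio test, DESeq2 1.42.0, all genes unfiltered, a minimum of 10 counts in each sample, separate fits of all transcripts, a block for the replicate number, offsets of each sample for transcript GC content and length (also together with the block), leaving out each sample, and shares of levels not divided by length. Shares per length of the annotated transcript and the other deposited starts of the members were added after seeing the data. The study's other measurements were not analysed here.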

Additional observations from a re-analysis of the deposited data

How the results depend on the processing

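FOS, FOSB, FOSL1, FOSL2, JUN, JUNB and ATF3 stayed higher and JUND stayed lower, each at an adjusted p under 0.05, under every alternative run. The log2 fold changes ranged from 2.14 to 2.34 for FOS, 2.20 to 2.37 for FOSB, 1.62 to 1.96 for FOSL1, 0.41 to 0.54 for FOSL2, 0.67 to 0.81 for JUN, 1.05 to 1.42 for JUNB, 1.17 to 1.35 for ATF3 and -0.85 to -0.49 for JUND. BATF3 ranged from -0.41 to -0.0051, and MAFF reversed to -0.053 with the library size alone. That scaling shifted the median log2 fold change of all genes by -0.11, and of the genes past the study's threshold 1516 were then higher and 1862 lower, against 1878 and 1479. By that threshold 7 members were called with the library size alone (not FOSL2) and 6 to 8 when 1 sample was left out. Leaving out 1 sample also moved the count over all genes. It ran from 2326 of 14168 without siKMT9α replicate 2 to 4085 of 13977 without siControl replicate 1. Over all genes the threshold called 3357 of 13877 in the main fit and fewer, 2342 of 13877, with the replicate block alone. It called more by the likelihood-ratio test (5962 of 13877) and with no filter (6070 of 18751). With the replicate block and GC and length offsets it called 5487 of 12891. The cause was not tested. Without division by length, the differences in family share were 1.80 percentage points for FOSB, 15.4 for FOSL1, -19.5 for FOSL2, 4.93 for JUN, 13.1 for JUNB and -18.0 for JUND, against 1.09, 17.9, -21.3, 4.06, 17.5 and -21.5. Per length of the annotated transcript, chosen after seeing the data, they differed from these by less than the spread between replicates. Deviations of samples with the same replicate number correlated at -0.079, 0.022 and -0.080, so the numbers gave no sign of pairing. With the replicate block 9 members kept an adjusted p under 0.05, while FOSL2 and JUND missed the study's threshold, which left 6 past it. With this block the threshold called fewer genes over the whole table as well, 2342 of 13877 against 3357 of 13877. BATF3 rested on 98.5 to 191.5 counts per sample.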

Other observations

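The genes whose levels ran most like those of FOS over the 6 samples were RAP1GDS1, DHRS13 and E2F7, by Pearson's r of log2(CPM + 0.5), and for JUN they were TMEM183B, TMEM183A and SBNO2. The 6 samples fall into their groups of 3, and 29.6% of the genes tested had an r over 0.9 with FOS and 28.7% with JUN. E2F7, a cell cycle repressor, had a log2 fold change of 2.04, RAP1GDS1 of 1.68 and SBNO2 of 1.12. TMEM183A and TMEM183B are near-identical copies whose reads could be split between them, so their values of 1.90 and 1.93 are uncertain.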
